A study of Homo sapiens with 6 samples.

Results

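The USP genes encode the ubiquitin-specific proteases, the most numerous class of human deubiquitinases. Members were taken by name: every gene whose symbol is USP followed by a digit, leaving out USP18 and USP9Y, which gave 66 of the 16809 genes measured. Of these, 19 belong to the USP17L group of near-identical gene copies and 47 lie outside it. USP6NL is among the 47 because its symbol fits, although it encodes a GTPase-activating protein for Rab GTPases and is not a protease. Expression was measured by RNA sequencing in 6 libraries of CAL-27, an established line from a human squamous carcinoma of the tongue. The ES-Cu group (3 libraries) had received elesclomol, an ionophore that carries copper into cells, together with copper for 24 h. The control group (3 libraries) was CAL-27 given no such treatment, and no vehicle is named for it. The series concerns cuproptosis, a death of cells brought on by copper. Neither dose is given in the sources used here.

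Deubiquitinases cut ubiquitin from proteins or trim ubiquitin chains, which can spare a protein from the proteasome, end a signal carried by ubiquitin or return free ubiquitin to the pool. USP proteins share a papain-like catalytic fold built around a cysteine and differ in the domains around it, which place them at the proteasome, in the nucleolus, on chromatin, on endosomes or on mitochondria. Several need a partner protein for full activity, and a few are classed as inactive because parts of the catalytic centre are missing.

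Values are TPM, which count transcripts relative to gene length and sum to a fixed total in each library, so levels of different genes can be set side by side. Log2 fold changes are ES-Cu over control on log2(TPM + 1), adjusted p-values are from limma over 11927 tested genes, and depth is unknown because TPM keeps no read totals. Between 14959 and 15051 genes lay above 0 in each library. The 20 highest genes took 21.8% of TPM in ES-Cu and 12.6% in control, and the log2 fold change of the median tested gene was -0.50 as deposited, 0.0037 once libraries were scaled by the median of ratios, and -0.07 under quantile normalization. A gene is therefore said to have risen or fallen only where it was called, at an adjusted p under 0.05, with one sign in all 3 scalings. Nothing in the labels ties the libraries to separate cultures, and p-values speak only of the spread seen among these libraries, which may be technical. The epithelial label was checked against its markers: KRT5, a basal keratin, averaged 853 ± 21.6 TPM in ES-Cu and 853 ± 22.8 TPM in control (SD, n = 3 each), and KRT14, its usual partner keratin, averaged 4.19 TPM in ES-Cu and 4.73 TPM in control. EPCAM averaged 250 TPM in ES-Cu and 274 TPM in control, KRT17 averaged 282 TPM in ES-Cu and 375 TPM in control, and KRT6A rose to 234 TPM in ES-Cu, against 174 TPM in control. CDH1, the epithelial cadherin, fell to 71.3 ± 3.01 TPM in ES-Cu, against 173 ± 2.33 TPM in control (SD, n = 3 each). TP63, the squamous transcription factor, fell to 24.5 ± 0.922 TPM in ES-Cu, against 86.8 ± 1.34 TPM in control (SD, n = 3 each). Of markers of other cell types, PTPRC (leukocytes) was at most 0.04 TPM in any library. CD68 (macrophages) averaged 50.9 TPM in ES-Cu and 63.6 TPM in control. Of the endothelial markers, CDH5 averaged 1.46 TPM in ES-Cu and 7.15 TPM in control, whereas PECAM1 averaged 0.107 and 0.0233 TPM. Of the fibroblast markers, COL1A1 averaged 3.62 TPM in ES-Cu and 8.36 TPM in control, COL1A2 0.17 and 0.65 TPM, and PDGFRB 0.903 and 2.23 TPM. In a bulk sample, fewer cells expressing a gene and less of its RNA per cell cannot be told apart.

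Outside the USP17L group, 43 of 47 members had a mean of at least 1 TPM and were tested. The 4 that were not are USP2, USP6, USP26 and USP44, none of which averaged above 1.06 TPM in either group. Of the 43, 8 were called higher and 30 lower on the deposited scale, where 13.6% of all tested genes were called higher and 70% lower. In all 3 scalings 8 rose (18.6%) and 9 fell (20.9%), beside 13.5% and 31.2% of all tested genes. The 8 that rose were USP36, USP38, USP42, USP12, USP14, USP1, USP3 and USP16. The 9 that fell were USP21, USP28, USP13, USP27X, USP20, USP54, USP40, USP48 and USP5. The remaining 26 did not keep one call in the 3 scalings, and median-of-ratios scaling turned 9 of the 30 lower calls into higher calls. In TPM, 8 of the 43 had every ES-Cu library above every control library, 31 had every one below and 4 overlapped, beside 11.8% above and 56.4% below of all genes in the table. The median log2 fold change over the 43 was -0.34, against -0.50 over all tested genes, and 27 of the 43 lay above the median gene. After median-of-ratios scaling 22 were called higher and 11 lower, where 38% and 35.8% of all tested genes were. After quantile normalization 20 were called higher and 10 lower, beside 31.4% and 39.9%.

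**Figure D1:**
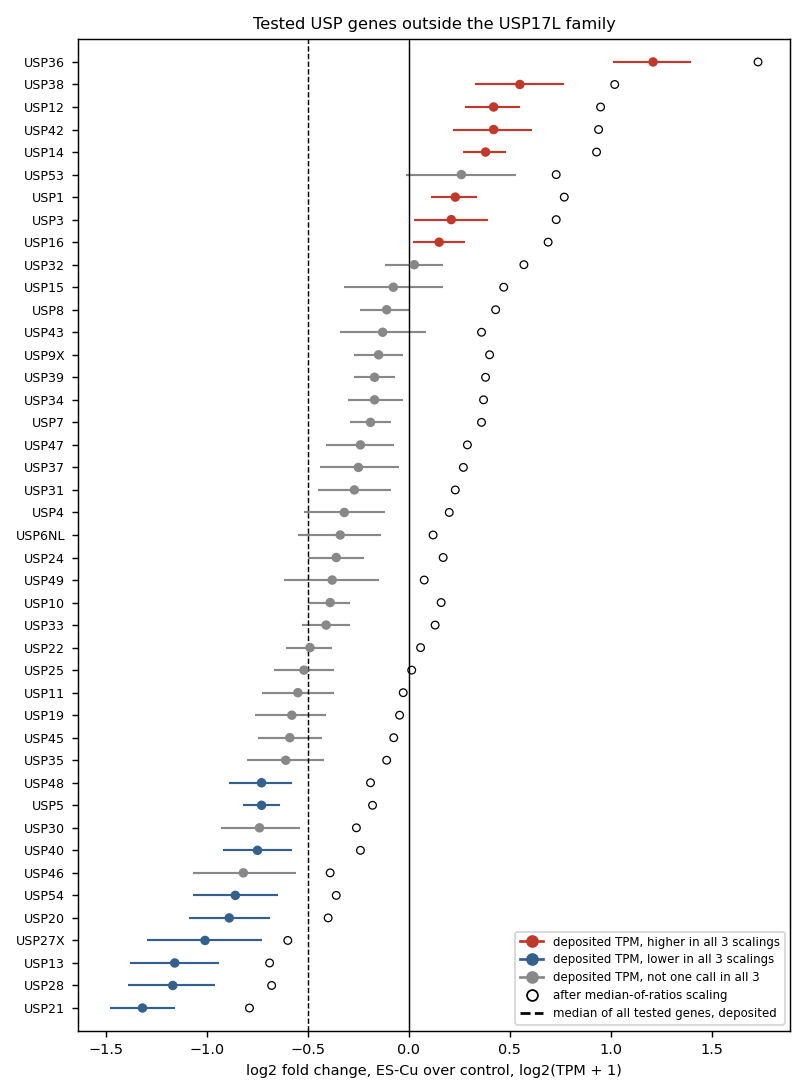
Log2 fold change, ES-Cu over control on log2(TPM + 1), of the 43 tested USP genes outside the USP17L group (filled points, with 95% intervals from limma) and the same value after median-of-ratios scaling (open circles). USP36 lies farthest to the right at 1.21 and USP21 farthest to the left at -1.32; the dashed line is the median tested gene at -0.50, and grey points did not keep one call in 3 scalings.

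The genes outside USP17L together held 1138 ± 20.6 TPM in ES-Cu and 1341 ± 21.5 TPM in control (SD, n = 3 each). Their range of means ran from 1.95 to 128 TPM in ES-Cu and from 4.68 to 146 TPM in control among tested genes. USP14 was the member with the most transcripts in ES-Cu and stood at rank 2 in control. USP5 held rank 2 in ES-Cu and rank 1 in control, and USP7 held rank 3 in both groups. The summed TPM of all 66 members was 1228, 1181 and 1208 in the ES-Cu libraries, against 1330, 1367 and 1329 in the control libraries. The groups did not overlap, which gave p = 0.1 in an exact two-sided permutation test, the smallest that 3 against 3 libraries allow. With the 20 highest genes taken out of every library, the share of all 66 members differed the other way. It stood 0.000608 percentage points above control (exact permutation p = 0.9), so the direction of this sum changed with that step. The sum includes the USP17L copies, which held 67.2 TPM in ES-Cu and 0.86 TPM in control. That step was not run on the members outside USP17L alone.

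The largest differences were in the USP17L group. These genes are copies of a short deubiquitinase gene, also known as DUB3 for USP17L2, that act on cell cycle and signalling proteins such as CDC25A. Their transcripts were compared in the GENCODE human set. All 171 pairs among the 19 copies were alike at 94.5% to 100% of the aligned bases of their longest transcripts, with a median of 97.9%. Single reads in this experiment were 50 bases long, and a median of 100% of the 50-base windows of a USP17L transcript also occurred in another USP17L gene, with a range of 28.9% to 100%. For the other 47 members the median was 0%, and 2 were over 10%. Reads of one USP17L copy can therefore be assigned to another, and the value of a single copy is uncertain. The stretch below, bases 270 to 329 of 1593-base transcripts of a pair of copies on chromosome 4, is shown because one version of it is common to many copies, so a read inside it cannot be placed among them; capitals mark the 4 bases at which the pair differs.
USP17L10: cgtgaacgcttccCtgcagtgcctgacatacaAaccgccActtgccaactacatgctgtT
USP17L24: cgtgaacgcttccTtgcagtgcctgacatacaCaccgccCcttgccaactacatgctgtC
The USP17L24 stretch occurred in 12 USP17L genes, so a read inside it cannot be placed among those 12. That of USP17L10 occurred in 1 and sets this copy apart. Over the whole transcripts the pair differed at 28 bases, an identity of 98.2%. The density of differences in the stretch shown follows from how it was chosen.

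Summed over all 19 copies, USP17L transcripts reached 69, 63.23 and 69.51 TPM in the ES-Cu libraries, against 0.45, 0.98 and 1.15 TPM in the control libraries. Every ES-Cu library stood far above every control library, with a ratio of means of 78.2 (67.2 ± 3.49 TPM against 0.86 ± 0.365 TPM, SD, n = 3 each) and an exact two-sided permutation p of 0.1, the smallest possible here. All windows that a USP17L copy shared with another coding gene lay in other USP17L genes. That search did not keep the 19 copies apart from USP17L genes outside the sum, and pseudogenes were not searched. TPM is also relative to length, and the longest transcripts of the copies ran from 1593 to 2022 bases. The sum can therefore still depend on how shared reads were given out. In control cells the group was close to absent: 8 copies were listed at 0 in all control libraries, and the highest single control value was 0.65 TPM. In ES-Cu, 11 copies were above 0 in every library and 10 of the 19 had every ES-Cu value above every control value, as did 11.8% of all genes in the table.

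**Figure D2:**
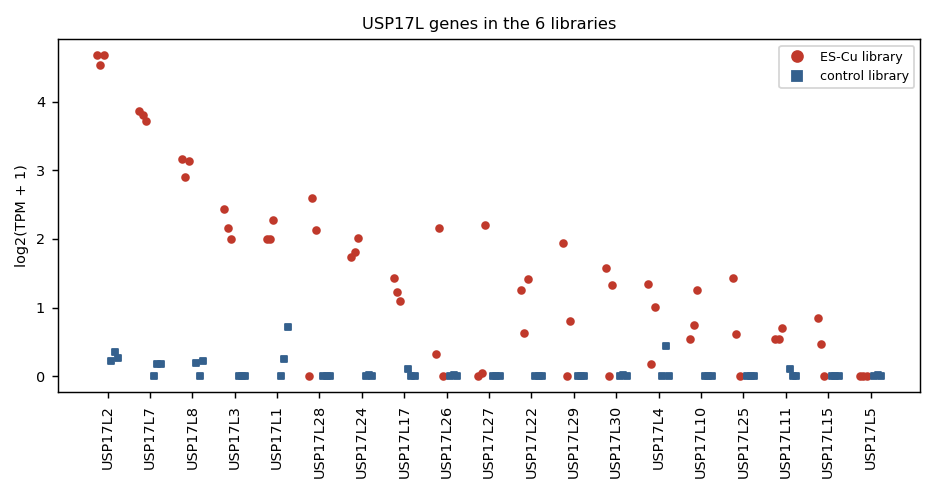
Level of each of the 19 USP17L genes, as log2(TPM + 1), in the 3 ES-Cu libraries (red circles) and the 3 control libraries (blue squares), ordered by mean level in ES-Cu. The first few copies form tight ES-Cu clusters far above control, whereas copies such as USP17L28, USP17L26 and USP17L27 are listed at 0 in some ES-Cu libraries.

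USP17L2 had the highest level of the group, with 24.58, 22.19 and 24.58 TPM in ES-Cu, against 0.17, 0.27 and 0.2 TPM in control. Its log2 fold change was 4.35 (SE 0.10, adjusted p = 3.97e-11), a figure that understates the ratio because of the added 1 TPM. Like every tested copy, USP17L2 passed the filter only through its ES-Cu values, so the p-value carries no weight as support. Among the 66 members it stood at rank 18 in ES-Cu and rank 47 in control. USP17L7 had 13.57, 12.95 and 12.19 TPM in ES-Cu, against 0, 0.13 and 0.13 TPM in control (log2 fold change 3.68, adjusted p = 5.19e-10). This copy had the lowest share of windows found in other copies, 28.9%, and USP17L2 had 60.5%. The pair made up 54.6% of the USP17L sum in ES-Cu.

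USP17L8 came next, with 8, 6.52 and 7.81 TPM in ES-Cu, against 0.14, 0 and 0.17 TPM in control (log2 fold change 2.93, adjusted p = 6.95e-09). USP17L3 had 4.41, 3.48 and 3.01 TPM in ES-Cu and was listed at 0 in all 3 control libraries, so no fold is given (adjusted p = 1.21e-07). USP17L1 had 2.99, 3.02 and 3.83 TPM in ES-Cu, against 0, 0.19 and 0.65 TPM in control (log2 fold change 1.77, adjusted p = 4.29e-06). In each of these 3 copies the lowest ES-Cu library was above the highest control library. USP17L24 had 2.35, 2.49 and 3.03 TPM in ES-Cu, against 0, 0.01 and 0 TPM in control (log2 fold change 1.85, adjusted p = 2.95e-07). USP17L28 was uneven, with 0, 5.03 and 3.37 TPM in ES-Cu and 0 in all control libraries. Its adjusted p was 0.0128, and without ES-Cu library 2 it was 0.0799. Its call in all 3 scalings was also lost without ES-Cu library 3, without control library 2 or 3, without the filter and without the trend.

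These 7 copies are the ones that were tested, and all 7 rose. They passed the filter of 1 TPM only through their ES-Cu values, since none had a control mean of at least 1 TPM. Neither their number nor their adjusted p-values therefore carry weight as support. Copies can also share reads, so their values are not separate evidence. The 12 copies below the filter had ES-Cu means of up to 1.39 TPM. USP17L17 was the highest of them, with 1.69, 1.35 and 1.14 TPM in ES-Cu, against 0.07, 0 and 0 TPM in control. Others were scattered between libraries: USP17L26 had 0.25, 3.45 and 0 TPM in ES-Cu, and USP17L27 had 0, 0.03 and 3.61 TPM. For both, all 50-base windows occur in other copies. USP17L5 was listed at 0 in all ES-Cu libraries and reached 0.01 TPM in a single control library.

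The USP17L copies sit in repeat clusters on 2 chromosomes, with 13 of the listed copies on chromosome 4 and 6 on chromosome 8. The chromosome 8 copies summed to 55.1, 48.29 and 52.43 TPM in ES-Cu, against 0.31, 0.94 and 1.15 TPM in control. The chromosome 4 copies summed to 13.9, 14.94 and 17.08 TPM in ES-Cu, against 0.14, 0.04 and 0 TPM in control. Both sums were thus higher in every ES-Cu library than in any control library (exact two-sided permutation p = 0.1 each), and the chromosome 8 copies made up 77.2% of the ES-Cu sum.

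Among the deubiquitinases of the proteasome and of ubiquitin recycling, 1 of 3 rose and 2 fell, beside 13.5% and 31.2% of all tested genes. Groups by role, here and below, hold few genes, so their counts set no role apart. USP14, which docks on the regulatory particle of the proteasome and trims chains from bound substrates, had 127.52, 133.34 and 122.05 TPM in ES-Cu, against 94.18, 101.93 and 98.15 TPM in control. Its groups did not overlap, and it rose by 0.38 on the log2 scale (SE 0.049, adjusted p = 2.31e-05). Its share of all USP transcripts was 10.6% ± 0.62 in ES-Cu and 7.31% ± 0.199 in control (SD, n = 3 each). USP5, which takes apart unanchored ubiquitin chains, moved the other way. It had 85.84, 87.78 and 89.45 TPM in ES-Cu, against 150.44, 144.58 and 144.22 TPM in control, with a log2 fold change of -0.73 (SE 0.041, adjusted p = 3.9e-08). Its share of USP transcripts was 7.28% ± 0.248 in ES-Cu and 10.9% ± 0.371 in control. USP13, the close relative of USP5, had 3.99, 3.21 and 3.39 TPM in ES-Cu, against 9.8, 8.7 and 8.86 TPM in control (log2 fold change -1.16, adjusted p = 9.41e-07). Both relatives were lower in every ES-Cu library than in any control library.

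Of the 3 tested members that work in the nucleolus or on RNA, 2 rose, beside 13.5% of all tested genes. USP36, the nucleolar deubiquitinase that acts on ribosome assembly factors and on MYC, showed the largest rise outside USP17L. It had 27.16, 25.3 and 32.19 TPM in ES-Cu, against 11.01, 12.18 and 11.63 TPM in control. Every ES-Cu library was above every control library, and the log2 fold change was 1.21 (95% interval 1.01 to 1.40, adjusted p = 2.55e-07), or 1.73 and 1.69 in the other scalings. USP36 stood at rank 14 among the members in ES-Cu and at rank 31 in control. USP42, its closest relative, had 15.84, 16.83 and 18.72 TPM in ES-Cu, against 11.32, 13.86 and 12.6 TPM in control, and rose by 0.42 on the log2 scale (SE 0.09, adjusted p = 0.00112). USP39, a spliceosome protein classed as inactive, averaged 68.6 ± 2.37 TPM in ES-Cu and 77.3 ± 1.28 TPM in control (SD, n = 3 each). Its log2 fold change was -0.17 as deposited, 0.38 with median-of-ratios scaling and 0.14 with quantile normalization, so its direction depended on the scaling.

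Among chromatin deubiquitinases, 2 of 6 tested members rose and 2 fell, beside 13.5% and 31.2% of all tested genes. USP21, which removes ubiquitin from histone H2A, showed the largest fall of all members. It had 12, 12.6 and 14.24 TPM in ES-Cu, against 34.01, 34.33 and 33.09 TPM in control, a log2 fold change of -1.32 (SE 0.072, adjusted p = 2.92e-08). The libraries of each group lay close together, and USP21 stood at rank 25 among the members in ES-Cu and at rank 14 in control. USP27X, a relative of USP22, had 2.12, 1.74 and 1.99 TPM in ES-Cu, against 4.62, 4.37 and 5.98 TPM in control (log2 fold change -1.01, adjusted p = 1.83e-05). Its call in all 3 scalings was lost without control library 3 (log2 fold change -0.90) or ES-Cu library 2 (-0.96). USP22, the deubiquitinase of the SAGA transcription complex, had 58.33, 54.13 and 60.74 TPM in ES-Cu, against 81.83, 80.8 and 81.96 TPM in control. Its log2 fold change was -0.49 as deposited, 0.06 with median-of-ratios scaling and -0.18 after quantile normalization, and it did not keep one call.

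Of the 2 chromatin members that rose, both did so by little. USP16, which acts on histone H2A and on the small ribosomal subunit, had 42.13, 46.39 and 41.96 TPM in ES-Cu, against 38.24, 41.15 and 37.96 TPM in control (log2 fold change 0.15, adjusted p = 0.0361). The call was lost without control library 1 (adjusted p = 0.1) or 3 (0.111), without ES-Cu library 2 (0.128) and without the trend of limma (0.0652). USP3, a further H2A deubiquitinase, had 17.22, 16.5 and 17.41 TPM in ES-Cu, against 16.36, 13.17 and 14.44 TPM in control (log2 fold change 0.21, adjusted p = 0.0341). Its lowest ES-Cu library, at 16.5 TPM, stood just above its highest control library, at 16.36 TPM. The call was lost without control library 2 (adjusted p = 0.137) or 3 (0.0794), without ES-Cu library 1 (0.0743) or 3 (0.0843) and without the filter (0.0566). USP49 averaged 3.95 TPM in ES-Cu and 5.42 TPM in control and did not keep one sign.

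Among 8 members tied to DNA damage and replication, 1 rose and 2 fell, beside 13.5% and 31.2% of all tested genes. USP1, which with WDR48 removes ubiquitin from FANCD2 and PCNA, had 57.04, 55.57 and 53.11 TPM in ES-Cu, against 46.41, 48.42 and 46.49 TPM in control. Every ES-Cu library was above every control library, and USP1 rose by 0.23 on the log2 scale (SE 0.05, adjusted p = 0.00138). USP28, which binds 53BP1 and stabilises MYC, had 4.53, 5.15 and 4.99 TPM in ES-Cu, against 13.81, 11.47 and 11.65 TPM in control. That was a log2 fold change of -1.17 (SE 0.10, adjusted p = 5.93e-07), with no overlap. USP48, which acts on histone H2A modified by BRCA1, had 25.96, 26.76 and 30.5 TPM in ES-Cu, against 44.32, 49.26 and 46.54 TPM in control (log2 fold change -0.73, adjusted p = 1.94e-06). After median-of-ratios scaling USP48 was at -0.19, and its call in all 3 scalings was lost without control library 2 or 3, without ES-Cu library 1 or 2, without the filter and without the trend.

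USP7, the deubiquitinase of MDM2 and p53, averaged 84.8 ± 2.72 TPM in ES-Cu and 96.9 ± 3.01 TPM in control (SD, n = 3 each). Its log2 fold change was -0.19 as deposited, 0.36 with median-of-ratios scaling and 0.09 after quantile normalization. USP47, which acts on DNA polymerase beta, averaged 16.4 TPM in ES-Cu and 19.5 TPM in control, with log2 fold changes of -0.24, 0.29 and 0.22 in the same scalings. Neither kept one sign, and the lower call of USP47 on the deposited scale was lost without ES-Cu library 3 (adjusted p = 0.0533). USP11, USP24 and USP37, the rest of this group, had log2 fold changes of -0.55, -0.36 and -0.25 on the deposited scale and none kept one call. That of USP37 was lost on the deposited scale too without control library 2 (adjusted p = 0.106) or ES-Cu library 1 (0.0531) or 2 (0.0567).

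Of the 5 tested members of endosomes and receptor traffic, USP20 alone kept one call. Over the whole table, 6594 of 11927 tested genes kept none. USP20, which acts on the beta-2 adrenergic receptor and other cargo, had 5.45, 4.89 and 4.91 TPM in ES-Cu, against 11.09, 9.47 and 10.33 TPM in control (log2 fold change -0.89, adjusted p = 3.62e-06). The call in all 3 scalings was lost without control library 1, where the deposited log2 fold change was -0.84. USP8, which rescues receptors from lysosomal sorting, averaged 35.6 ± 1.79 TPM in ES-Cu and 38.5 ± 0.613 TPM in control (SD, n = 3 each). Its log2 fold change of -0.11 was not called (adjusted p = 0.0731), except without ES-Cu library 1 (0.0314), and it was 0.43 after median-of-ratios scaling. USP10, which acts on p53 and on stress granules with G3BP1, averaged 57.5 ± 2.61 TPM in ES-Cu and 75.8 ± 0.962 TPM in control (SD, n = 3 each), with log2 fold changes of -0.39, 0.16 and -0.08 in the 3 scalings. USP32 averaged 28.9 TPM in ES-Cu and 28.3 TPM in control. Its deposited log2 fold change of 0.03 was not called, and turned to -0.01 without control library 3 and to -0.02 without ES-Cu library 1. In the other scalings USP32 was called higher, at 0.57 by median of ratios (adjusted p = 1.21e-05) and 0.43 by quantiles (0.000102).

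At the endoplasmic reticulum and mitochondria, no member kept one call, nor did 6594 of all 11927 tested genes. USP30, which opposes Parkin on the mitochondrial outer membrane, had 4.56, 4.52 and 4.52 TPM in ES-Cu, against 7.97, 8.02 and 8.67 TPM in control. Its log2 fold change was -0.74 as deposited (adjusted p = 1.09e-05), -0.26 with median-of-ratios scaling (0.0165) and -0.12 after quantile normalization (0.226), so the last scaling ended the call. USP25, which takes part in endoplasmic reticulum-associated degradation, averaged 18.5 ± 0.645 TPM in ES-Cu and 27 ± 1.64 TPM in control (SD, n = 3 each), with log2 fold changes of -0.52, 0.01 and -0.11. USP19, a member anchored in that membrane, averaged 20.9 TPM in ES-Cu and 31.8 TPM in control (-0.58, -0.05 and -0.17). USP35 averaged 6.38 TPM in ES-Cu and 10.3 TPM in control (-0.61, -0.11 and -0.02).

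The 4 members known from TGF-beta and Wnt signalling likewise kept no call, as was so for 6594 of all 11927 tested genes. USP15, which acts on the TGF-beta receptor and SMAD proteins, had 60.11, 48.2 and 46.04 TPM in ES-Cu, against 50.96, 63.81 and 48.28 TPM in control. Its groups overlapped and its log2 fold change was -0.08 (95% interval -0.32 to 0.17, adjusted p = 0.529), or 0.04 without control library 2. USP9X, which acts on SMAD4 and on MCL1, averaged 52.5 ± 1.94 TPM in ES-Cu and 58.3 ± 2.94 TPM in control (SD, n = 3 each), with log2 fold changes of -0.15, 0.40 and 0.17. Its deposited call was lost without control library 2 (adjusted p = 0.0923), without ES-Cu library 2 (0.0768) and without the trend (0.0525). USP34, which acts on axin, averaged 28.8 TPM in ES-Cu and 32.4 TPM in control (-0.17, 0.37 and 0.22). Its deposited call was lost without control library 1 (adjusted p = 0.0506) or 2 (0.0721) and without ES-Cu library 2 (0.0865). USP4, which also acts on the TGF-beta receptor, averaged 11.9 TPM in ES-Cu and 15.2 TPM in control (-0.32, 0.20 and 0.17).

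The remaining members that kept one call were USP12, USP38, USP54 and USP40. USP12, which depends on WDR48 as USP1 does, had 28, 28.49 and 27.39 TPM in ES-Cu, against 20.5, 21.73 and 19.91 TPM in control, and rose by 0.42 on the log2 scale (SE 0.06, adjusted p = 5.52e-05). USP38, a regulator of the kinase TBK1, had 7.65, 8.53 and 6.81 TPM in ES-Cu, against 4.74, 5.19 and 4.8 TPM in control, and rose by 0.55 (SE 0.10, adjusted p = 0.000345). Neither gene's groups overlapped. USP54, long classed as inactive, had 7.42, 5.94 and 7.11 TPM in ES-Cu, against 13.72, 12.29 and 13.57 TPM in control (log2 fold change -0.86, adjusted p = 6.13e-06). USP40 had 7.69, 8.06 and 8.27 TPM in ES-Cu, against 14.17, 13.6 and 14.69 TPM in control (log2 fold change -0.75, adjusted p = 2.96e-06). Its groups did not overlap, and its call in all 3 scalings was lost without control library 1 or 3 or ES-Cu library 1. USP31, USP33, USP43, USP45 and USP6NL kept no call and had log2 fold changes of -0.27, -0.41, -0.13, -0.59 and -0.34 on the deposited scale.

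**Figure D3:**
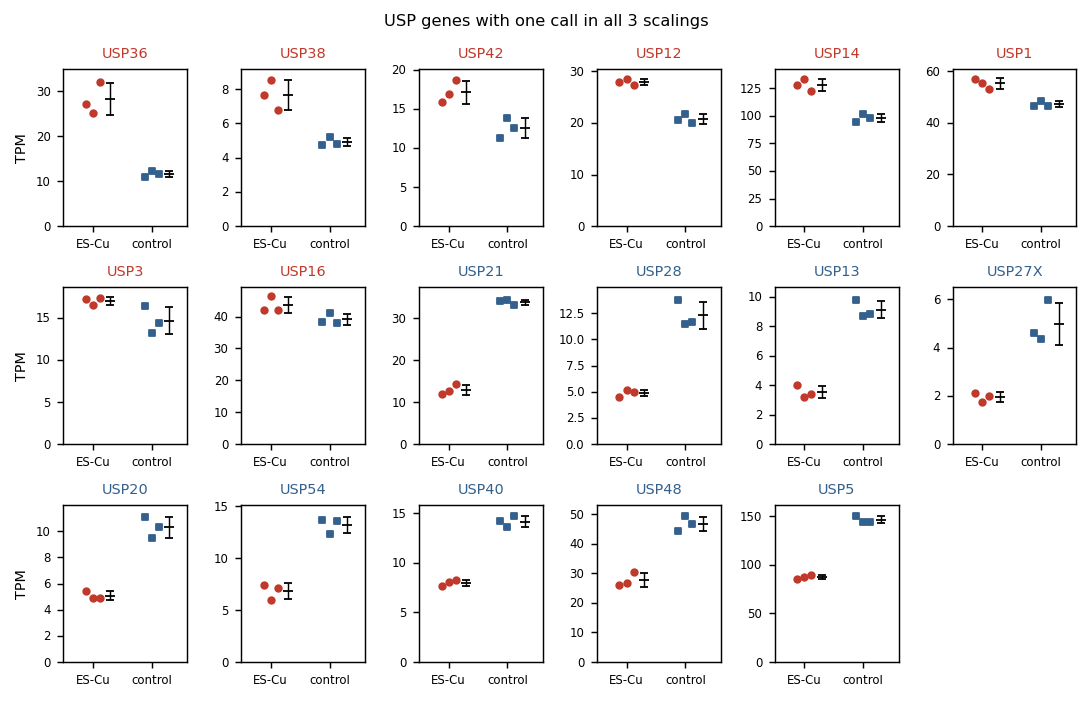
TPM of the 17 USP genes outside USP17L that kept one call in 3 scalings, in the 3 ES-Cu libraries (red circles, left) and the 3 control libraries (blue squares, right), with mean and SD as bars and axes starting at 0. Names in red rose and names in blue fell; USP36 reached 32.19 TPM in its highest ES-Cu library, and USP3 and USP16 show the narrowest gaps between groups.

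Promoters were available from RefSeq (GRCh38.p14) for 38 of the 66 members, as windows of 300 bases from 250 before to 50 after the start of the gene. A heat shock, an antioxidant, an ATF4, an AP-1 and a metal motif were searched on both strands, where matches of one motif can overlap another. The metal response element, searched as the loose pattern TGCNCNC, occurred in 26 of 38 member promoters (68.4%) and in 55.2% of all 27305 promoters. It was present in 6 of 7 members that rose and in 6 of 8 that fell. The antioxidant element, TGACNNNGC, occurred in 4 of 38 (10.5%) and in 13.6% of all promoters, and USP14 and USP38 were the rising members that held it. The heat shock element GAANNTTC, the ATF4 site TGATGCAA and the AP-1 site TGANTCA occurred in none of the 38, and in 6.87%, 0.923% and 7.76% of all promoters. A match or its lack says only which letters the window holds. The promoters of USP36, USP14, USP38 and USP21 are shown because these genes are, outside USP17L, the largest riser, the most abundant riser, a further riser with an antioxidant match, and the largest faller; capitals mark matches to any of the motifs, and the window of USP21 held none.
USP36, chr17:78840765-78841064, minus strand: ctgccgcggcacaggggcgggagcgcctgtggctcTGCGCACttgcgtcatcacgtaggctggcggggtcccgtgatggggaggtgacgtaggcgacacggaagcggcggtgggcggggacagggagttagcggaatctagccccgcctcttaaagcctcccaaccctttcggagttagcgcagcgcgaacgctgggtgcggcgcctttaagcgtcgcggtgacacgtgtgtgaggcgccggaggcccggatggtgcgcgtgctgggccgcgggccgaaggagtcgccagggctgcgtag
USP14, chr18:158307-158606, plus strand: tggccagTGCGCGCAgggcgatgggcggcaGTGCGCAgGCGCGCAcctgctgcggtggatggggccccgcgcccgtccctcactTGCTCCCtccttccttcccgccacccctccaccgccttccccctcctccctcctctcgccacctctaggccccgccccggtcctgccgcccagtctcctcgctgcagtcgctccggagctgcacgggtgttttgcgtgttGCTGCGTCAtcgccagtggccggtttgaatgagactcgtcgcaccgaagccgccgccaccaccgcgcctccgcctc
USP38, chr4:143184667-143184966, plus strand: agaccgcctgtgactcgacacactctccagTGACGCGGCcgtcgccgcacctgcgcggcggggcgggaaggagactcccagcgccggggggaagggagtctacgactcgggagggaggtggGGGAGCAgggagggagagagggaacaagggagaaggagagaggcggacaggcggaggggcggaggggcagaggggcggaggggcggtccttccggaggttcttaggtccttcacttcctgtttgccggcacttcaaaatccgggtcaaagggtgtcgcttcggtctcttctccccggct
USP21, chr1:161159250-161159549, plus strand: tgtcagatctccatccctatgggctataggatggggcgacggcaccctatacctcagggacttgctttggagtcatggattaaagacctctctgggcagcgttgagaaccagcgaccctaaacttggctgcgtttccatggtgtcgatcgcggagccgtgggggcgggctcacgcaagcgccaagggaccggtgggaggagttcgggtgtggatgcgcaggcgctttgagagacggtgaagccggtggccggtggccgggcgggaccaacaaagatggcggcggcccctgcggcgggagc

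Related USP genes were also compared with each other inside each library, since a ratio of 2 genes does not depend on how a library is scaled. Of 14 pairs listed, 13 could be compared, with both genes above 0 in all libraries. In 10 of the 13 the ES-Cu and control libraries did not overlap, a share close to the 74.8% found over all 70264585 pairs of genes that meet the same conditions, so the count itself is no result about USP genes. Each of these had an exact two-sided permutation p of 0.1, the smallest possible, and 0.13 after Benjamini-Hochberg adjustment over the 13 pairs, so none passed a threshold of 0.05 and none could have.

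The balance between USP12 and USP46, which share the partner WDR48, shifted most. The log2 ratio of USP12 to USP46 was 3.49, 3.58 and 3.90 in ES-Cu, against 2.19, 2.15 and 2.10 in control, a difference of 1.51. USP46 averaged 2.24 ± 0.356 TPM in ES-Cu and 4.68 ± 0.204 TPM in control (SD, n = 3 each). The ratio of USP35 to USP38 was -0.18, -0.44 and -0.16 in ES-Cu, against 1.15, 1.04 and 0.99 in control, so USP38 was the more abundant of the pair in every ES-Cu library and USP35 in every control library. The ratio of USP53 to USP54, both classed as inactive, was -0.09, 0.11 and -0.26 in ES-Cu, against -1.61, -0.93 and -1.49 in control. USP53 itself was not called on the deposited scale (log2 fold change 0.26, adjusted p = 0.0732), but without control library 2 it was (0.39, adjusted p = 0.00796). In the other scalings USP53 was called higher, at 0.73 by median of ratios (adjusted p = 0.000316) and 0.87 by quantiles (0.000138).

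USP36 exceeded USP42 in every ES-Cu library, with log2 ratios of 0.78, 0.59 and 0.78, and lay below it in every control library, with -0.04, -0.19 and -0.12. The ratio of USP5 to USP13 averaged 4.64 ± 0.187 in ES-Cu and 4.01 ± 0.0594 in control (SD, n = 3 each), with every ES-Cu library above every control library. USP25 to USP28 averaged 1.92 in ES-Cu and 1.13 in control, USP22 to USP27X 4.89 and 4.04, and USP16 to USP45 2.16 and 1.37. In these 3 pairs the first gene gained on the second. USP20 lost ground to USP33 (-2.38 in ES-Cu, -1.79 in control) and USP11 to USP15 (-2.14 and -1.63). The groups overlapped for USP4 to USP15 (exact permutation p = 0.3), USP4 to USP11 (0.3) and USP31 to USP43 (0.2), where the differences were -0.27, 0.24 and -0.15.

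**Figure D4:**
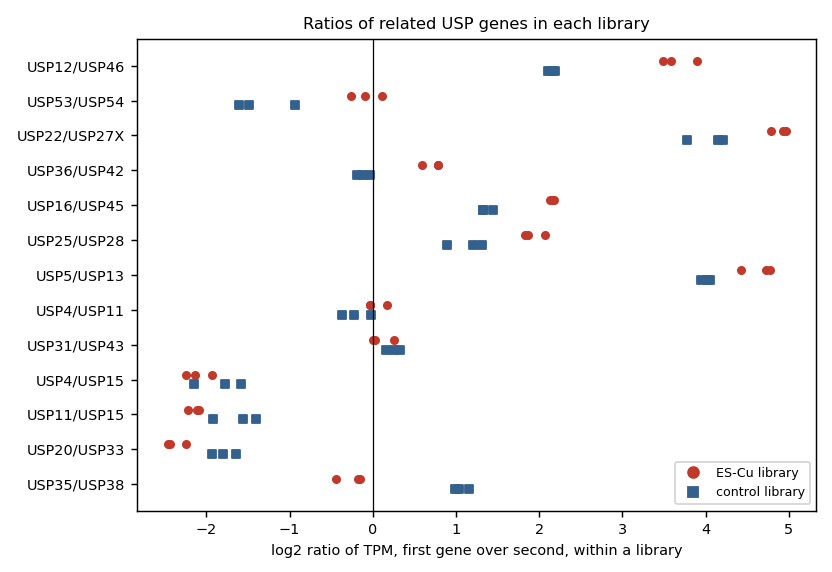
Log2 ratio of TPM between related USP genes within a library, first gene over second, for 13 pairs; each red circle is an ES-Cu library and each blue square, drawn below, a control library. The groups are apart in 10 pairs, with the widest shift, 1.51, for USP12 over USP46, and they overlap for USP4/USP11, USP31/USP43 and USP4/USP15.

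For context, the deubiquitinases of other families (UCH, OTU, Josephin, JAMM, MINDY and ZUFSP, with CYLD) comprised 39 listed genes, 37 of them tested. On the deposited scale 14 were called higher and 15 lower, where 13.6% and 70% of all tested genes were. In all 3 scalings 14 rose (37.8%) and 6 fell (16.2%), beside 13.5% and 31.2% of all tested genes. Their median log2 fold change was -0.09, beside -0.34 for the USP genes outside USP17L and -0.50 for all tested genes. Without control library 3 the count called higher was 9. YOD1, an OTU enzyme that works with VCP, had 26.65, 24.05 and 25.72 TPM in ES-Cu, against 7.56, 8.13 and 7.79 TPM in control (log2 fold change 1.58, adjusted p = 8.21e-09), beside 1.21 for USP36. MINDY1, which trims long ubiquitin chains, averaged 3.4 ± 0.397 TPM in ES-Cu and 7.8 ± 0.217 TPM in control (SD, n = 3 each; adjusted p = 2.89e-06). COPS6, an inactive JAMM-type subunit of the COP9 signalosome, averaged 117 ± 9.33 TPM in ES-Cu and 231 ± 3.15 TPM in control (SD, n = 3 each; adjusted p = 3.25e-08).

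Of 21 known partners of USP enzymes, all tested, 6 were called higher and 12 lower on the deposited scale, where 13.6% and 70% of all tested genes were. In all 3 scalings 6 rose (28.6%) and 0 fell by limma, with 0 falls also at an unadjusted p under 0.05, beside 13.5% and 31.2% of all tested genes. The 3 of these 6 with the widest change are described here. STAM, the endosomal partner of USP8, averaged 30.2 ± 1.66 TPM in ES-Cu and 20 ± 1.29 TPM in control (SD, n = 3 each; log2 fold change 0.57, adjusted p = 1.28e-05). PSMD2, the proteasome subunit on which USP14 docks, averaged 1145 ± 33.3 TPM in ES-Cu and 797 ± 11.2 TPM in control (SD, n = 3 each; log2 fold change 0.52, adjusted p = 1.46e-07). SART3, which brings USP4 and USP15 to the spliceosome, averaged 65.6 ± 1.3 TPM in ES-Cu and 48.5 ± 0.75 TPM in control (SD, n = 3 each; log2 fold change 0.43, adjusted p = 5.1e-06). PSMD2 and USP14 thus both rose, whereas USP8, USP4 and USP15 did not keep one call.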

How the data were processed

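Total RNA of CAL-27 cells was read as single ends of 50 bases on the BGISEQ-500 platform, per the labels' protocols. The deposited values are TPM made by the authors, and each library adds up to one total. The submitters' processing notes list HISAT, Bowtie2 and GRCm38.p6. That build is of the mouse although the genes in the table are human, and no coordinates of the authors are printed. The quantification tool and annotation are not given in the sources used here.

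A gene was tested if it averaged 1 TPM or more across the 6 libraries. Tests were run with limma 3.58.1 (R 4.3.3) on log2(TPM + 1). The model held the group only, with a mean-variance trend, two-sided tests, Benjamini-Hochberg adjustment over 11927 genes and a threshold of 0.05. It was run on the deposited TPM and again on values scaled by the median of ratios or by quantiles, and "rose" and "fell" need one sign in all 3. Summed levels and ratios within a library were compared with exact two-sided permutation tests over libraries. An exact 0 is given as listed at 0, and depth and counting error are unknown. The code was checked on simulated libraries with known changes. Transcripts came from GENCODE and promoters from RefSeq.

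The members, gene lists and pairs were chosen with earlier results of these data known. Genes named with values were every member that rose, the 8 steepest falls with at least 5 TPM in a group, 15 well-studied members, the genes of the pairs, and up to 3 genes of each context list; other names complete a count. Alternatives changed the pseudocount (0.1, 0.5), the filter (none, 5 TPM), the trend, the 20 highest genes (removed), the replicate number (as a block) and the set of libraries (each one left out). Counts without the USP17L genes, and the same settings applied to calls in all 3 scalings, were added after the data were seen.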

Additional observations from a re-analysis of the deposited data

How the results depend on the processing

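The scaling moved the most values. Genes called higher and lower numbered 4532 and 4266 after median-of-ratios scaling and 3749 and 4756 after quantile normalization, against 1628 and 8351 on the deposited scale. USP genes called higher numbered 29 and 27 in these scalings and those called lower 11 and 10. Without the 7 tested USP17L copies, which passed the filter only through their ES-Cu values, 22 and 20 were called higher. Of all tested genes, 38% and 31.4% were called higher and 35.8% and 39.9% lower. Other deubiquitinases had 22 and 22 called higher and 8 and 8 called lower, and partners had 13 and 10 called higher and 0 (1 at an unadjusted p under 0.05) and 2 called lower by limma. The median log2 fold change of the 50 tested USP genes, -0.24 as deposited, was 0.28 and 0.22 in these scalings, -0.093 with the 20 highest genes removed, -0.10 without the filter and -0.34 without the USP17L genes. Without the USP17L genes 8 members were called higher and 8 rose. With the 20 highest genes removed the summed share of all USP members, USP17L copies included, differed by 0.000608 percentage points, above control. The cause of these shifts was not tested.

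Signs of single genes turned round after median-of-ratios scaling for 18 members: USP39 (0.38), USP49 (0.076), USP9X (0.40), USP10 (0.16), USP24 (0.17), USP34 (0.37), USP43 (0.36), USP22 (0.058), USP37 (0.27), USP31 (0.23), USP7 (0.36), USP8 (0.43), USP6NL (0.12), USP25 (0.014), USP47 (0.29), USP33 (0.13), USP4 (0.20) and USP15 (0.47). After quantile normalization 14 turned round: USP39 (0.14), USP49 (0.25), USP9X (0.17), USP24 (0.064), USP34 (0.22), USP43 (0.47), USP37 (0.27), USP31 (0.32), USP7 (0.091), USP8 (0.25), USP6NL (0.29), USP47 (0.22), USP4 (0.17) and USP15 (0.24). With the 20 highest genes removed, USP9X was at 0.008, USP43 at 0.013, USP8 at 0.041 and USP15 at 0.080. With each library left out in turn USP32 ranged from -0.02 (without ES-Cu library 1) to 0.076 and USP15 from -0.19 to 0.042 (without control library 2), and USP32 also fell below 0 without control library 3.

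Leaving out each library in turn, with the USP17L copies counted, gave 13 to 15 USP genes called higher and 27 to 30 lower. The same step gave 12 to 14 that rose and 6 to 9 that fell, and a median of -0.25 to -0.19. It gave 1502 to 1593 genes higher and 8088 to 8278 lower over the table. It gave 9 to 13 other deubiquitinases called higher and 15 to 16 lower, 4 to 6 partners higher and 11 to 12 lower, and 10 to 12 pairs without overlap. The USP share differed by -0.0147 to -0.0124 percentage points and that of USP17L by 0.00653 to 0.00684. Pseudocounts of 0.1 and 0.5 changed no call of the 50 tested members. Libraries with the same number did not deviate together (correlations of 0.021, -0.034 and 0.011), so the numbers were not read as pairs. With the replicate block 15 USP genes were called higher and 30 lower, and no member's call changed. Depth is unknown, so the precision of values near 0 TPM could not be given.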

Other observations

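The genes that flank the USP17L copies in RefSeq order, and all those that lie between copies on chromosome 8, were read as well. Many of the latter are not next to a copy. Of 47 such genes in the table, 27 were tested, 3 rose and 8 fell, beside 13.5% and 31.2% of all tested genes. The 3 that rose were DEFB103A, TRMT44 and LONRF1, named because of this count. DEFB103A, which encodes the antimicrobial peptide beta-defensin 3 and has a near-identical copy, DEFB103B, had 81.76, 62.56 and 86.9 TPM in ES-Cu, against 2.32, 0 and 0 TPM in control (log2 fold change 5.70, adjusted p = 1.03e-07). Its control mean was 0.773 TPM, so it passed the filter of 1 TPM only through its ES-Cu values. Its place in the count and its adjusted p carry no weight. DEFB103B had 0.92, 1.71 and 0.9 TPM in ES-Cu and was listed at 0 in control, and reads of the copies may have been shared out between them. TRMT44, a tRNA methyltransferase gene, averaged 7.31 ± 0.535 TPM in ES-Cu and 4.65 ± 0.599 TPM in control, and LONRF1 4.7 ± 0.125 TPM and 3.72 ± 0.442 TPM (SD, n = 3 each).

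DUX4, a transcription factor of the early embryo, is encoded in another repeat array of chromosome 4, and its known targets were looked up after the USP17L values were seen, so no test was made. Of 22 genes listed, 14 were in the table. DUX4 had 0.32, 0.1 and 0.11 TPM in ES-Cu and was listed at 0 in control. Among the listed targets RFPL4A had 3.09, 3.05 and 2.3 TPM in ES-Cu, against 0, 0 and 0.2 TPM in control. CCNA1 had 0.55, 0.22 and 0.32 TPM in ES-Cu, against 0, 0 and 0.13 TPM in control, and RFPL2 had 0.38, 0.49 and 0.2 TPM in ES-Cu, against 0.12, 0 and 0 TPM in control. These 3 targets were higher in every ES-Cu library than in any control library, as were 11.8% of all genes in the table. Of the other listed targets, RFPL1, KHDC1L and TRIM49 were lower in every ES-Cu library than in any control library, as were 56.4% of all genes. RFPL1 had 0.14, 0.06 and 0.13 TPM in ES-Cu, against 0.31, 0.16 and 0.56 TPM in control. ZSCAN4 had 0, 0 and 0.08 TPM in ES-Cu, against 0, 0.1 and 0 TPM in control, and TRIM43B was listed at 0 in all ES-Cu libraries. KHDC1L had 7.26, 5.16 and 7.22 TPM in ES-Cu, against 9.89, 10.21 and 7.72 TPM in control. TRIM49 was listed at 0 in all ES-Cu libraries, against 0.68, 0.4 and 0.44 TPM in control.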
